A study of Mus musculus with 2 samples.

Results

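The Cfap genes (cilia and flagella associated proteins) are described here across the cell populations of mouse ventricular wall cultures that make multiciliated ependymal cells. Members were all genes whose symbol is Cfap followed by digits, with any suffix, which gave 33 of the 32287 genes in the deposited table. Of these, 32 had enough counts to be tested, and Cfap97d1, with 23 UMIs (unique molecular identifiers, each standing for a captured transcript) in all cells of both libraries, did not. The walls of the lateral ventricles came from newborn mice at postnatal days 0 to 2, and their cells were grown to confluence in serum, shaken overnight to remove other cells, and kept for 2 days without serum to start differentiation. There is 1 untreated group of 2 samples: C57BL/6N mice gave replicate 1 and C57BL/6J mice gave replicate 2, each a single droplet library (10x Genomics 3′ v3), so that substrain, culture and library cannot be told apart. No transgene or mutation is named in the labels. A flask took the equivalent of 2 ventricular walls. The labels do not say whether the replicates came from separate litters or days. With the library as a term in the fit, p-values measure only how population differences vary between these 2 libraries, which may be partly technical. That spread was estimated over all 13 fitted populations together.

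Motile cilia are built on an axoneme, a ring of doublet microtubules around a central pair. Dynein arms on the doublets slide them past each other, and radial spokes pass signals between the central pair and the arms. Many Cfap proteins are structural parts of this machine: some sit inside the doublets, some tie down the inner dynein arms, some form the base of the radial spokes, some form projections of the central apparatus, and some act in the cytoplasm to assemble dynein arms. Ependymal cells carry tufts of such cilia that move cerebrospinal fluid. Before the cilia form, a progenitor stops dividing and passes through a deuterosomal stage, in which deuterosomes, structures particular to multiciliated cells, help to make many centrioles that become the basal bodies of the cilia. The deposited names follow this path: progenitors I and II, cycling progenitors, early, mid and late deuterosomal cells, early MCCs (multiciliated cells) and MCCs. Neuroblasts, OPCs (oligodendrocyte precursor cells), oligodendrocytes, microglia and fibroblasts make no tufts of motile cilia.

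By the roles known for the proteins, 7 members belong to the doublet microtubules, 5 to the inner dynein arms, 2 to the radial spoke base, 8 to the central apparatus and 2 to dynein assembly, and 9 were given no such role here. All 33 members were found in the GENCODE M21 annotation of GRCm38 (mm10). Another gene overlaps 5 members on the same strand and 17 on the other strand, and the sources used here do not give whether counting used strand, so part of the counts of these members could belong to the overlapping gene.

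Sequence around the start sites is shown because the members mostly moved together and because RFX factors, which act on cilia genes, bind an inverted repeat called the X-box. RefSeq windows on GRCm38.p6, from 250 bases before to 50 bases after the start site, matched 26 of the 33 members by symbol. Cfap53, Cfap54, Cfap65, Cfap73, Cfap97, Cfap157 and Cfap299 were not matched. The X-box was searched on both strands with a degenerate pattern that allows any base at some positions. It was present in the windows of 5 of the 26 members (19.2%), beside 2.49% of 27025 genes with such a window. The 5 matches, each read 5′ to 3′ on the strand of its gene with the whole match in capitals, were as follows.
Cfap45, chr1:172521111-172521124, plus strand: GTTGCTATGGTAAC
Cfap61, chr2:145934776-145934789, plus strand: GTTTCCTTAGCAAC
Cfap206, chr4:34730216-34730229, minus strand: GTTTCCACGGTTAC
Cfap44, chr16:44394772-44394785, plus strand: GTTGCTATGGCAAC
Cfap298, chr16:90935024-90935037, minus strand: GTTGCCCGGGCAAC
The first base of the match lay 19, 8, 23, 27 and 188 bases before the RefSeq start site in these 5 genes. The GENCODE spans differ, and by them the matches of Cfap45 and Cfap298 lie wholly inside the gene. The shorter motif GTTGCC, which is an arm of the X-box and overlaps the matches in Cfap44 and Cfap298, was present in 10 of 26 members (38.5%) and in 14.1% of all genes. The forkhead motif GTAAACA was present in 2 of 26 (7.69%) and 4.05%, and the E2F core TTCCCGC in 3 of 26 (11.5%) and 5.29%. For Cfap206 and Cfap44, a radial spoke gene and an inner arm gene described below, the 250 bases before the start site are given 5′ to 3′ on the gene's strand (chr4:34730207-34730456, minus strand, and chr16:44394549-44394798, plus strand), with the X-box match in capitals.
Cfap206: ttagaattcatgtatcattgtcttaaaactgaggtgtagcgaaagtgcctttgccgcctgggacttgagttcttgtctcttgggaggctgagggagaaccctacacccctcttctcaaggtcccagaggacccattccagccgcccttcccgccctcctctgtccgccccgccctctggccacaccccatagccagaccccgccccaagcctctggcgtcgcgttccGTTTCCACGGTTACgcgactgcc
Cfap44: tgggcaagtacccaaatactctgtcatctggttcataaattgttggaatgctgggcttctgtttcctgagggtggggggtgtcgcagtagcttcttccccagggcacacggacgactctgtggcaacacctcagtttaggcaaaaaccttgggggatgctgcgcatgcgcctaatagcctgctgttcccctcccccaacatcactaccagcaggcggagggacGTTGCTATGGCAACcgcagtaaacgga
The E2F core in Cfap206 begins 104 bases before the start site, outside its X-box match. A match is a stretch of letters and not a measured binding site.

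The libraries held 12028 and 4373 cells with 173510950 and 70611931 UMIs, and a median of 12708 and 14409 UMIs per cell, in replicates 1 and 2. The 14 deposited population labels, cells with no population name among them, were used as given. The sources used here do not give how they were assigned. If the names were drawn from these counts, a test between populations describes named groups of cells and is not independent of the naming. Levels are CPM, the UMIs of a gene summed over the cells of a population in a library and scaled to 1000000 UMIs in all, and pairs of values are always replicate 1 and then replicate 2. Counts from the 3′ end are not corrected for transcript length, and levels are compared within a gene only. The summed level of 5 MCC markers was 2523 and 2240.3 CPM in MCCs and 286 and 278 CPM in progenitors I, and that of 5 deuterosomal markers was 1570.0 and 1707 CPM in mid deuterosomal cells, as their names say. MCC markers also reached 428 and 79.4 CPM in microglia and 276 and 24.4 CPM in OPCs, which is a gap between the libraries taken up below. The libraries shared 13 cell barcodes.

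Summed over the 33 members, the level was 1093 and 1020.1 CPM in progenitors I, 1929 and 1900.1 in progenitors II, 3396 and 3297 in early deuterosomal cells, 6493 and 6595 in mid deuterosomal cells, 5716 and 6536 in late deuterosomal cells, 5891 and 6484 in early MCCs and 5792 and 6227 in MCCs. Both libraries rose in steps from progenitors I to mid deuterosomal cells and stayed near that level afterwards. Set against MCCs of the same library, the sum in progenitors I was 18.9% and 16.4%, in progenitors II 33.3% and 30.5%, in early deuterosomal cells 58.6% and 52.9% and in mid deuterosomal cells 112% and 106%. The sum is weighted to the members with the most UMIs, Cfap36 and Cfap298 first. The median over members was lower: 8.78% and 6.61% in progenitors I, 22.6% and 21.3% in progenitors II, 40.5% and 32.4% in early and 80.9% and 72.1% in mid deuterosomal cells.

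**Figure D1:**
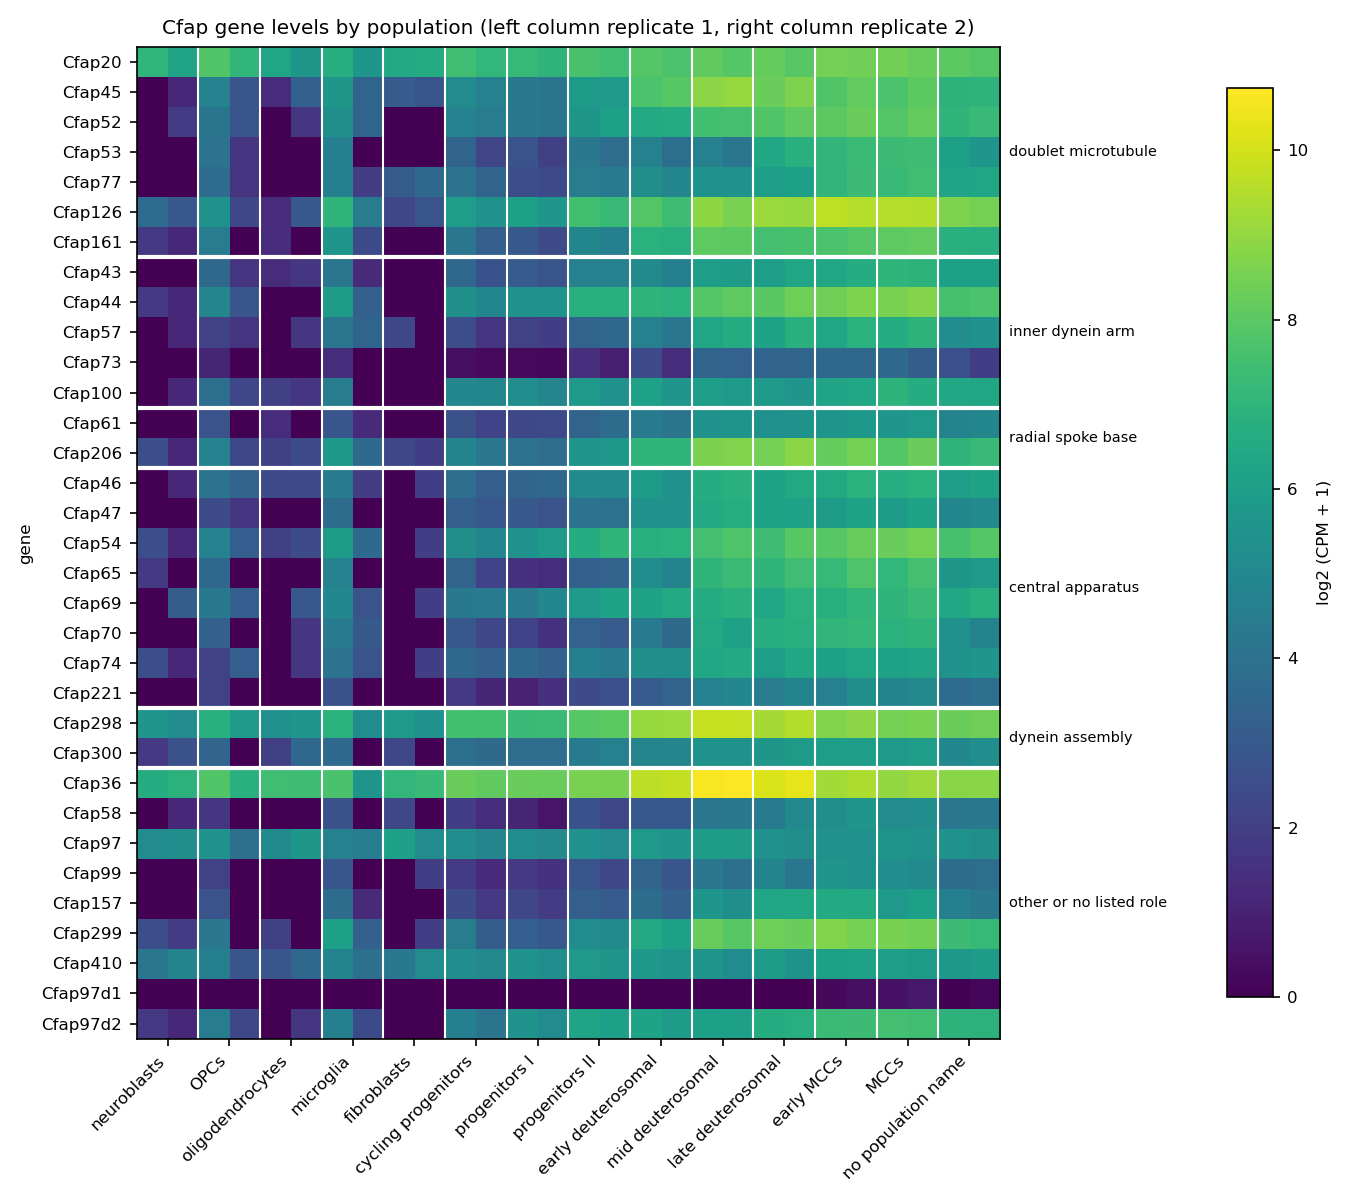
Level of each Cfap gene (rows, grouped by known role) in each deposited population (columns, replicate 1 left and replicate 2 right), as log2 (CPM + 1). Most rows brighten from progenitors I to mid deuterosomal cells, while Cfap97 and Cfap410 change little from progenitors I to MCCs. Most members are darkest in neuroblasts, oligodendrocytes and fibroblasts.

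Among the doublet genes, all 7 were higher in MCCs than in the progenitors I and II averaged, as were 31 of the 32 tested members, with 0 lower, in edgeR's quasi-likelihood test with Benjamini-Hochberg adjustment. Of all 15877 genes tested 28.7% were higher and 28.0% lower in that comparison. The members' median log2 fold change was 2.85, beside -0.03 over all genes. Cfap126 (Flattop), which acts in basal body positioning, had 66.1 and 48.5 CPM in progenitors I, 230.0 and 169.7 in early deuterosomal cells, 485 and 383 in mid deuterosomal cells, 832 and 740.3 in early MCCs and 740.2 and 724 in MCCs. Both libraries were highest in early MCCs, and the change from progenitors to MCCs was 2.88 ± 0.28 (SE), adjusted p = 9.66e-07. Cfap20, a protein of the inner junction of the doublet, was already at 145 and 125 CPM in progenitors I and reached 355 and 336 in early MCCs, which made it the smallest change of the doublet group (0.98 ± 0.11 (SE), adjusted p = 3.23e-08).

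Cfap45 and Cfap52 are proteins of the inner wall of the doublet. Cfap45 (chr1:172520801-172545870) rose from 19.5 and 16.8 CPM in progenitors I to 207 and 248 in early and 467 and 518 in mid deuterosomal cells, and stood at 207 and 257 CPM in MCCs. Its mid deuterosomal level exceeded its MCC level in both libraries. Cfap52 went from 18.6 and 17.2 CPM in progenitors I to 179 and 187 in mid deuterosomal cells and 264 and 309.6 in early MCCs, and so peaked later than Cfap45. Cfap161, another protein inside the doublet, had the largest early change of all members: 7.08 and 4.53 CPM in progenitors I, 29.0 and 23.9 in progenitors II and 113 and 108 in early deuterosomal cells (3.08 ± 0.24 (SE), adjusted p = 1.55e-07 against the progenitors). Its level in mid deuterosomal cells, 266 and 260.5 CPM, was close to that in MCCs, 266 and 280.5, and the libraries placed its peak in different stages.

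Cfap53 and Cfap77, also proteins of the doublet, followed another course. Cfap53 was at 5.61 and 3.08 CPM in progenitors I, 25.2 and 13.5 in early and 24.2 and 17.7 in mid deuterosomal cells, and then at 83.9 and 112 in late deuterosomal cells, 134 and 159 in early MCCs and 164 and 170.1 in MCCs. Its largest step in CPM lay between the mid and late deuterosomal cells in both libraries (2.07 ± 0.36 (SE), adjusted p = 0.00191), where no other doublet gene passed the test except in fits on the compared populations, on thinned cells or without the deepest cells. Cfap77 (chr2:28926949-29055066) had 44.8 and 44.3 CPM in mid and 63.3 and 65.1 in late deuterosomal cells and 134 and 165 in early MCCs. After the early deuterosomal stage the step into early MCCs was the only one that passed the test (1.20 ± 0.20 (SE), adjusted p = 0.000346), though the step before it passed in 3 and the step from early to mid cells in 2 of 8 alternative fits, and both genes were highest in MCCs.

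**Figure D2:**
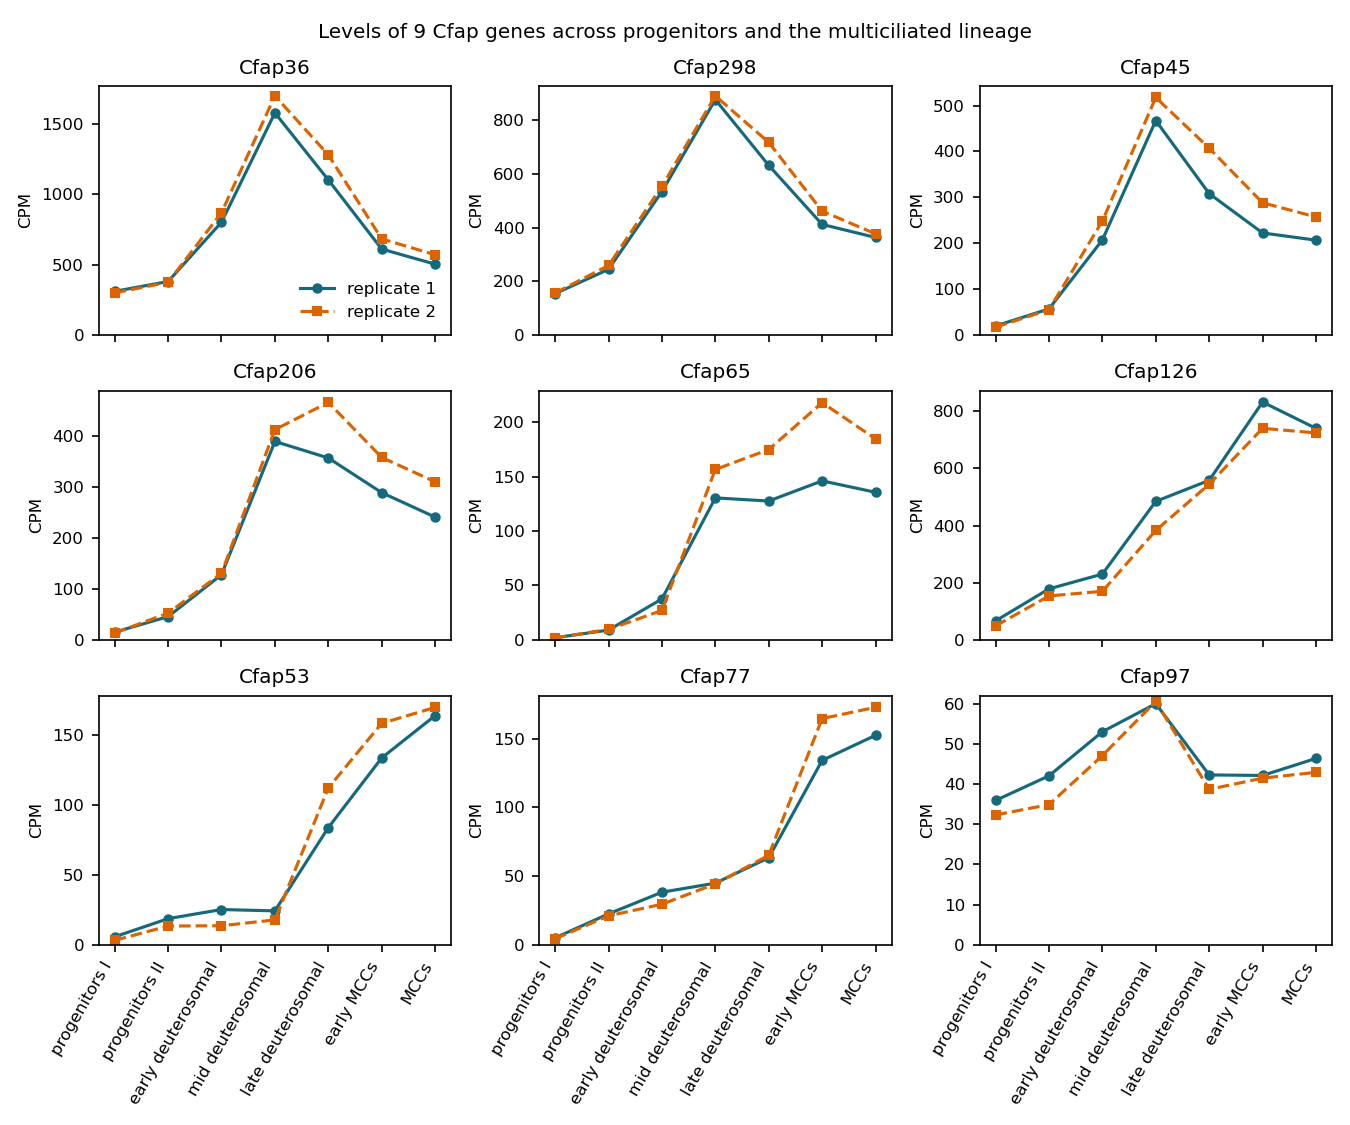
Levels (CPM, linear axes from 0) of 9 Cfap genes across progenitors I, progenitors II and the 5 stages of the multiciliated lineage, replicate 1 as circles and replicate 2 as squares. Cfap36, Cfap298, Cfap45 and Cfap97 are highest in mid deuterosomal cells in both libraries, Cfap53 and Cfap77 climb after that stage, and Cfap126 and Cfap65 are highest in early MCCs.

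All 5 inner arm genes were higher in MCCs than in progenitors, by 1.42 to 4.20 on the log2 scale. Cfap44 and Cfap43 form a tether that holds an inner arm dynein. Cfap44 had 45.1 and 43.6 CPM in progenitors I, 106 and 106 in progenitors II, 240.0 and 265 in mid deuterosomal cells and 381 and 428 in MCCs, a change of 2.51 ± 0.20 (SE), adjusted p = 2.53e-07 from progenitors to MCCs. Cfap43 ran from 7.47 and 5.99 CPM in progenitors I through 62.5 and 59.5 in mid deuterosomal cells to 128 and 120.0 in MCCs. Both tether genes were highest in MCCs in both libraries. Cfap57, a regulator of inner arms, rose from 3.18 and 2.91 to 81.1 and 96.9 CPM between progenitors I and mid deuterosomal cells, and its change from early to mid deuterosomal cells was 2.17 ± 0.18 (SE), adjusted p = 6.60e-09. Cfap73 and Cfap100 form a complex that modifies the inner arms. Their changes from progenitors to MCCs were of different size: 4.16 ± 0.27 for Cfap73, from 0.215 and 0.168 CPM in progenitors I to 11.6 and 7.93 in MCCs, and 1.42 ± 0.14 for Cfap100, from 37.8 and 28.5 to 121 and 100.4 CPM. The difference between those changes was not tested.

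Both radial spoke base genes rose early. Cfap206 (chr4:34688559-34730206), which docks a radial spoke and an inner arm, had 14.9 and 13.4 CPM in progenitors I, 45.4 and 52.3 in progenitors II, 128 and 131 in early, 389.7 and 413 in mid and 357 and 466 in late deuterosomal cells, and 241 and 310.3 in MCCs. Its change against the progenitors was 2.23 ± 0.21 (SE), adjusted p = 1.06e-06 in early and 3.98 ± 0.20 in mid deuterosomal cells. Cfap61, part of the calmodulin and spoke associated complex, went from 4.08 and 4.37 CPM in progenitors I to 44.0 and 46.6 in mid and 40.6 and 43.4 in late deuterosomal cells and 47.2 and 53.2 in MCCs.

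All 8 central apparatus genes were higher in mid deuterosomal cells than in early ones, but Cfap54 and Cfap69 did not pass by DESeq2 or without the library as a term in the fit, and Cfap69 passed in 3 of 8 alternative fits. Cfap65 (chr1:74902071-74935599) had the largest change of all tested members from progenitors to MCCs. Its level was 1.86 and 1.68 CPM in progenitors I, 8.89 and 9.53 in progenitors II, 37.5 and 26.9 in early and 130.4 and 157 in mid deuterosomal cells, 146 and 218 in early MCCs and 136 and 185 in MCCs (5.21 ± 0.31 (SE), adjusted p = 1.39e-08). After every cell was thinned to 5000 UMIs, Cfap65 had a UMI in 47.6% of 2013.0 cells (95% interval 45.4% to 49.8%) in replicate 1 and 56.3% of 261.0 cells (50.1% to 62.4%) in replicate 2 among MCCs. Among progenitors I it had a UMI in 0.926% of 2268.0 cells (95% interval 0.574% to 1.41%) in replicate 1 and 0.743% of 1211.0 cells (0.340% to 1.41%) in replicate 2. Oligodendrocytes, which should lack the gene, had 0 of 63 and 0 of 35 such cells, which allows shares of up to 4.76% and 8.57% by the limit of 3 counts of the total, or 5.69% and 10.0% as exact upper bounds (median depth before thinning 8994.5 and 10979.5 UMIs, beside 10490.0 and 13127.5 in progenitors I), so the share in progenitors I could not be told from background at this depth. Cfap70 also rose steeply, from 20.9 and 12.0 CPM in early to 87.8 and 69.1 in mid deuterosomal cells, the largest change of any member at that step (2.35 ± 0.22 (SE), adjusted p = 1.67e-07).

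Cfap54 had 43.2 and 54.5 CPM in progenitors I, 99.9 and 128 in progenitors II, 108 and 115 in early deuterosomal cells and 307 and 359 in MCCs. Progenitors II were thus near early deuterosomal cells, and Cfap54 was the only central apparatus gene that did not pass the test between progenitors and early deuterosomal cells (0.53 ± 0.20 (SE), adjusted p = 0.0501), a call that turned in 5 of 8 alternative fits, where Cfap54 was higher. Cfap69 ran from 21.2 and 30.2 CPM in progenitors I to 124 and 153 in MCCs. Cfap46, Cfap74 and Cfap221 belong to projections of the central pair and changed from progenitors to MCCs by 2.45 ± 0.14, 2.20 ± 0.12 and 3.53 ± 0.17. Cfap47 and Cfap74 stood at 93.3 and 102 and 84.9 and 92.4 CPM in mid deuterosomal cells and 57.9 and 74.9 and 69.5 and 76.0 CPM in MCCs, so that both were highest in the mid stage in both libraries.

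The dynein assembly genes act before the axoneme is in place. Cfap298 (chr16:90925809-90935114) had 154 and 156 CPM in progenitors I, 535 and 554 in early and 878 and 892 in mid deuterosomal cells, 632 and 718 in late deuterosomal cells, 412 and 462 in early MCCs and 363 and 377 in MCCs. It was highest in mid deuterosomal cells in both libraries, and MCCs were below them by -1.36 ± 0.25 (SE), adjusted p = 0.000285. Cfap300 showed no such drop: its levels were 13.1 and 13.4 CPM in progenitors I, 43.2 and 43.2 in mid deuterosomal cells and 62.9 and 64.3 in early MCCs.

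Of the 9 members without a listed role, Cfap36 (chr11:29221532-29247409), which binds the small GTPase Arl3, rose and then fell along the lineage. It stood at 309.5 and 299 CPM in progenitors I, 379.6 and 374 in progenitors II, 801 and 869 in early, 1579 and 1700.2 in mid and 1103 and 1281 in late deuterosomal cells, 610.3 and 683 in early MCCs and 503 and 569.7 in MCCs. The mid deuterosomal level was the highest and the MCC level the lowest of the 5 stages in both libraries. Its change from progenitors was 2.33 ± 0.30 (SE), adjusted p = 9.81e-06 for mid deuterosomal cells and 0.62 ± 0.31 (SE), adjusted p = 0.105 for MCCs, and it was the only tested member that did not pass the test in the latter. It passed there, as higher, by DESeq2, with only the compared populations, with thinned cells and without the deepest cells.

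Cfap299 (chr5:98329304-98802047) rose from 8.37 and 6.66 CPM in progenitors I to 299 and 242 in mid deuterosomal cells and 410.0 and 363 in early MCCs, a change to MCCs of 4.43 ± 0.23 (SE), adjusted p = 6.58e-10. Cfap157, a target of the ciliary factor Foxj1 known from sperm, had 12.7 and 8.75 CPM in early, 49.0 and 40.2 in mid and 80.3 and 85.7 in late deuterosomal cells, 94.2 and 94.3 in early MCCs and 55.3 and 65.5 in MCCs. It was the only member that passed the test between MCCs and early MCCs, where it fell (-0.69 ± 0.17 (SE), adjusted p = 0.0114), and it did not pass by DESeq2 or without the library term. Cfap58, needed for the sperm flagellum, and Cfap99 rose from 1.18 and 0.504 and 2.43 and 2.02 CPM in progenitors I to 38.7 and 46.9 and 47.5 and 40.9 CPM in early MCCs.

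Cfap97d2 had 42.8 and 35.3 CPM in progenitors I, 76.7 and 65.2 in progenitors II, 74.4 and 58.8 in early and 65.4 and 65.1 in mid and 99.9 and 107 in late deuterosomal cells, and 182 and 174 in MCCs. It was higher in progenitors II than in progenitors I, was near the progenitors II level up to the mid stage, and rose again after it. Cfap97, a homologue of the fly gene Hemingway, stayed between 32.4 and 60.7 CPM from progenitors I to MCCs, and Cfap410, which works with the kinase Nek1 at the base of cilia, between 36.6 and 70.3 CPM. Both passed the test between progenitors and MCCs with small changes (0.24 ± 0.10 and 0.37 ± 0.12). Neither passed without the library term, and Cfap97 did not pass with no low count filter. Cfap97d1 was at 0.423 and 0.626 CPM in MCCs and 0.0358 and 0 CPM in progenitors I, and these levels rest on a few UMIs.

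Along the path, the first difference lay within the progenitors. The deposited names split the non-cycling progenitors into I and II, and 26 of 32 members were higher in progenitors II and 0 lower, where 4.44% of all genes were higher and 2.73% lower. The members' median log2 fold change was 1.38, beside 0.01 over all genes, and the medians of the separate libraries were 1.39 and 1.55. The largest changes were those of Cfap73 (2.71 ± 0.51, on 1.81 and 0.85 CPM in progenitors II), Cfap58 (2.34 ± 0.34), Cfap65 (2.27 ± 0.55), Cfap299 (2.15 ± 0.31 (SE), adjusted p = 0.000876) and Cfap77 (2.14 ± 0.25). Cfap97, Cfap36, Cfap410, Cfap20, Cfap100 and Cfap298, with changes from 0.10 to 0.62, did not pass the test. The deuterosomal markers were at 49.2 and 50.9 CPM in progenitors II and 19.5 and 23.0 in progenitors I, and the MCC markers at 488 and 497 and 286 and 278. Without the library as a term in the fit 10 of the 26 passed.

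Early deuterosomal cells were higher than the averaged progenitors in 29 of 32 members and lower in 0, where 21.8% of all genes were higher and 19.8% lower. The median change was 1.35 (all genes -0.03). The averaged side includes progenitors I, where most members were lower than in progenitors II. Early deuterosomal cells were not tested against progenitors II alone. The largest changes were those of Cfap161, Cfap65 (2.94 ± 0.37), Cfap45 (2.77 ± 0.21 (SE), adjusted p = 1.00e-07), Cfap73 (2.46 ± 0.37) and Cfap206. By role, 7 of 7 doublet genes, 5 of 5 inner arm genes, 2 of 2 radial spoke base genes, 7 of 8 central apparatus genes and 2 of 2 dynein assembly genes rose. Without the library term 22 of the 29 passed, with 4 of 7 doublet, 3 of 5 inner arm and 1 of 2 dynein assembly genes. Cfap410, Cfap97d2 and Cfap54 did not pass the test. From early to mid deuterosomal cells 27 of 32 rose and 0 fell (28.2% and 20.8% of all genes), with a median of 1.18 (all genes 0.08, which the use of plain library totals moved to -0.03). The largest changes at this step were those of Cfap70, Cfap65 (2.23 ± 0.33), Cfap57, Cfap157 (2.16 ± 0.21 (SE), adjusted p = 1.10e-07) and Cfap299 (1.92 ± 0.26), while Cfap410, Cfap97d2, Cfap100, Cfap53 and Cfap77 did not pass the test. Neighbouring steps share a population, so their values are not independent.

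After the mid stage fewer members passed the test at each step in the main fit, and so did fewer of all genes. From mid to late deuterosomal cells 3 rose (Cfap53, Cfap157 by 0.78 ± 0.17 and Cfap97d2 by 0.57 ± 0.16) and 3 fell (Cfap97, -0.65 ± 0.13, Cfap47, -0.49 ± 0.17, and Cfap74, -0.38 ± 0.14), beside 8.61% and 13.2% of all genes. From late deuterosomal cells to early MCCs 6 rose (10.3% of all genes): Cfap77, Cfap99 (0.91 ± 0.17), Cfap58 (0.74 ± 0.20), Cfap100 (0.65 ± 0.19), Cfap97d2 (0.65 ± 0.16) and Cfap20 (0.37 ± 0.13). In that step 0 fell by edgeR and by DESeq2, with 2 below an unadjusted p of 0.05 by edgeR (12.4% of all genes fell). From early MCCs to MCCs Cfap157 fell, and 0 rose by edgeR and by DESeq2, with 2 at an unadjusted p under 0.05, where 4.58% of all genes rose and 6.29% fell. Without the library term, 1 and 0 members passed between mid and late cells and 1 between late cells and early MCCs. In fits on the compared populations alone 11 rose and 9 fell between mid and late cells, 20 rose and 5 fell between late cells and early MCCs, and 5 rose and 5 fell between the MCC stages.

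**Figure D3:**
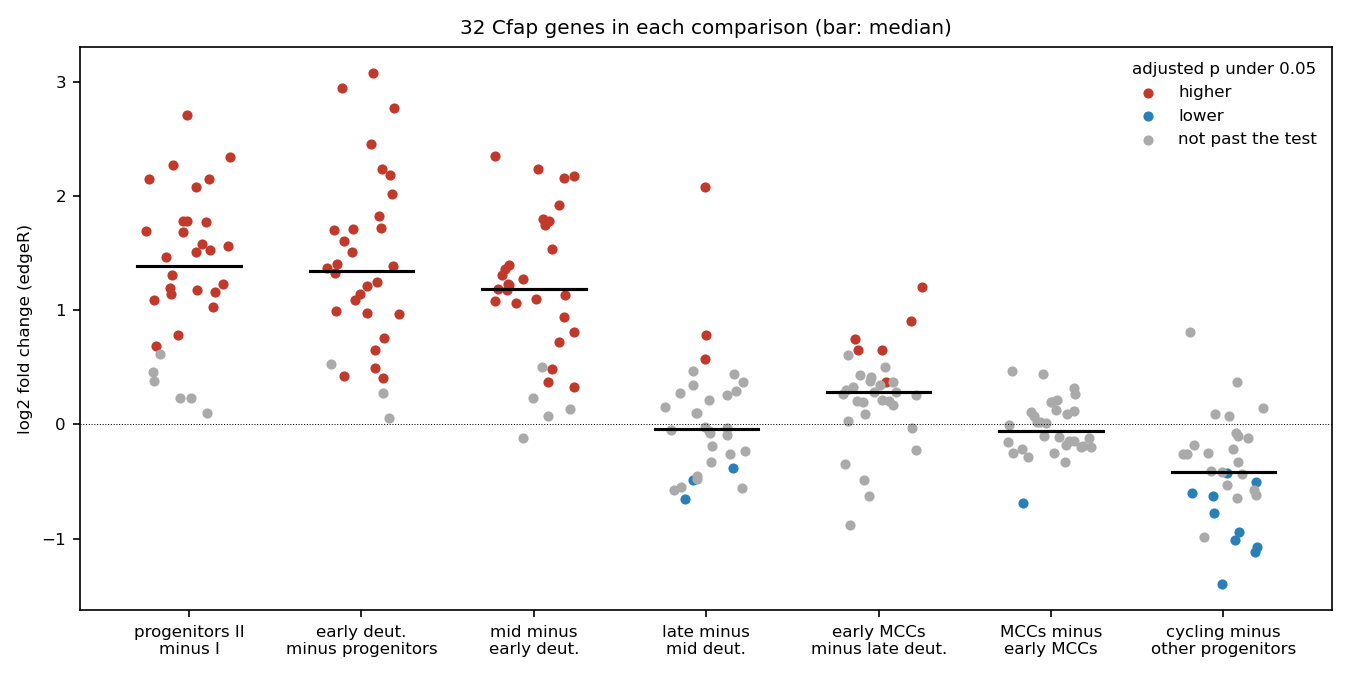
log2 fold change of the 32 tested Cfap genes (points, spread sideways at random) in 7 comparisons, coloured by the edgeR call, with the median as a black bar. The points lie mostly above 0 in the first 3 comparisons (medians 1.38, 1.35 and 1.18) and around 0 in the 3 later steps, and 10 are called lower in cycling progenitors.

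Set directly against mid deuterosomal cells, a comparison added after the levels had been seen, MCCs were higher in 10 members and lower in 7, beside 29.2% and 29.9% of all genes. The 7 lower ones were Cfap36 (-1.71 ± 0.37 (SE), adjusted p = 0.00136), Cfap298, Cfap45 (-1.19 ± 0.24 (SE), adjusted p = 0.000581), Cfap47 (-0.69 ± 0.16), Cfap206 (-0.65 ± 0.23), Cfap97 (-0.53 ± 0.12) and Cfap74 (-0.39 ± 0.13). The 10 higher ones were led by Cfap53 (2.87 ± 0.34 (SE), adjusted p = 2.00e-05), Cfap77 (1.76 ± 0.19 (SE), adjusted p = 6.20e-07), Cfap97d2 (1.35 ± 0.15), Cfap99 (1.05 ± 0.16) and Cfap43 (0.92 ± 0.18), and Cfap58, Cfap100, Cfap54, Cfap70 and Cfap410 rose by 0.43 to 0.90. The share of members called in either direction was close to that of all genes, and the split cut through the role groups: the doublet genes Cfap45 and Cfap53 moved in opposite directions, as did the central apparatus genes Cfap47 and Cfap54, neither of which passed by DESeq2 or without the library term. Without the library term 6 were higher and 3 lower, and with cells thinned to 5000 UMIs 18 were higher.

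The onset of a member was set as the first stage of the lineage with adjusted p under 0.05, a log2 fold change of at least 1 against the averaged progenitors and a higher level in both libraries. It fell in early deuterosomal cells for 21 members and in mid deuterosomal cells for 6 (Cfap44, Cfap54, Cfap69, Cfap126, Cfap157 and Cfap300). Cfap20 and Cfap97d2 reached it in early MCCs and Cfap100 in MCCs, Cfap97 and Cfap410 in no stage, and Cfap97d1 was not tested. The minimum set the stage for many: with no minimum 29 members had their onset in early deuterosomal cells, and with a minimum of 2 it was 7 there and 15 in mid deuterosomal cells. Against the same progenitors 31 of 32 members were higher in mid deuterosomal cells, 29 in late ones and 31 in early MCCs, beside 38.9%, 32.4% and 29.5% of all genes. These comparisons share their progenitor cells. Their averaged side includes progenitors I, and early deuterosomal cells were not tested against progenitors II alone. An early onset can therefore hold a rise already present in progenitors II. Cfap43 had 24.3 and 25.6 CPM in progenitors II and 33.7 and 23.7 in early deuterosomal cells. Cfap53 had 18.6 and 13.3 CPM in progenitors II and 25.2 and 13.5 in early deuterosomal cells.

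The peak, the stage with the highest CPM in both libraries, was in MCCs for 11 members, in early MCCs for 11 and in mid deuterosomal cells for 6 (Cfap36, Cfap45, Cfap47, Cfap74, Cfap97 and Cfap298). For Cfap46, Cfap73, Cfap161, Cfap206 and Cfap221 the libraries gave different stages. The 11 members with a peak in MCCs include the untested Cfap97d1, which had 13 and 3 UMIs there. By share of thinned cells with a UMI, 9 members peaked in MCCs, and for 6 the libraries differed. The early MCC and MCC levels of the members were close, with medians of 98.3% and 103% of the MCC level in early MCCs, and Cfap157 alone passed the test between these stages.

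Per cell, the pattern was the same in kind. With each cell thinned to 5000 UMIs, which left out 607 shallower cells, the median number of the 33 members with a UMI was 4 and 3 in progenitors I, 6 and 6 in progenitors II, 9 and 8 in early deuterosomal cells, 14 and 13 in mid deuterosomal cells and 15 and 16 in MCCs. At least 10 members were found in 0.529% and 0.330% of progenitors I, 11.3% and 11.5% of progenitors II, 41.4% and 35.0% of early and 94.2% and 93.6% of mid deuterosomal cells. Unthinned medians were 6 and 7 in progenitors I, 10 and 11 in progenitors II, 14 and 15 in early deuterosomal cells and 23 and 25 in MCCs.

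**Figure D4:**
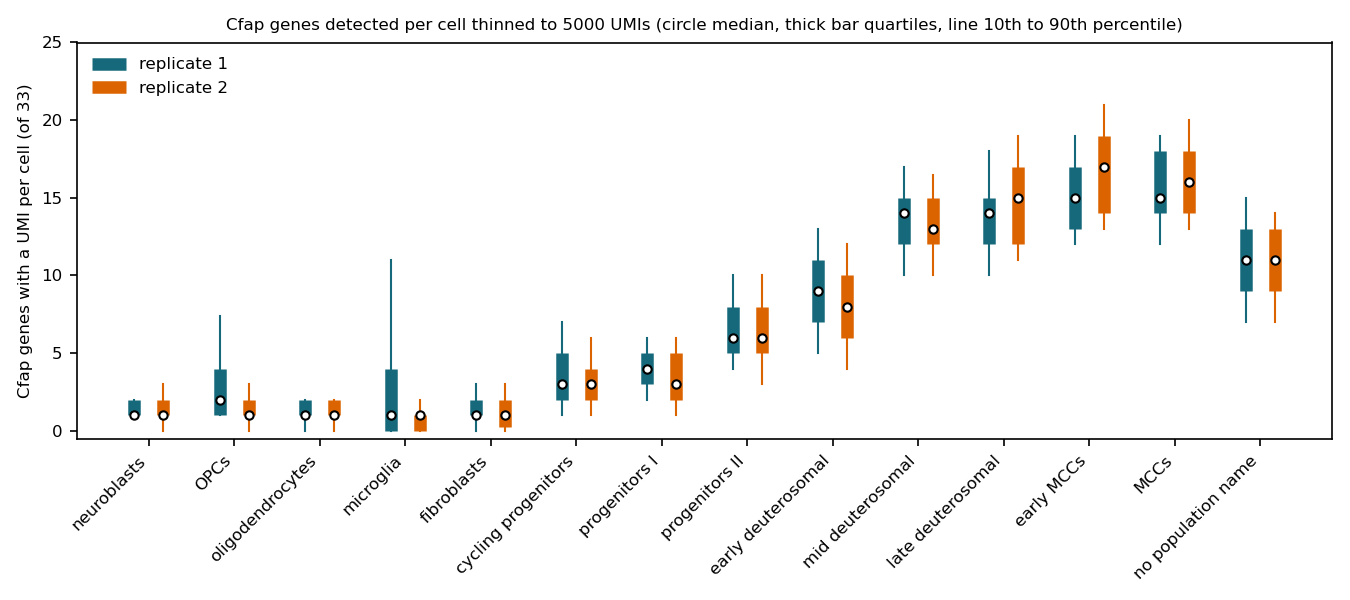
Number of the 33 Cfap genes with a UMI per cell after thinning to 5000 UMIs, by population and replicate (circle, median; thick bar, quartiles; thin line, 10th to 90th percentile). The median climbs from 4 and 3 in progenitors I to 15 and 16 in MCCs, and microglia and OPCs of replicate 1 have a long upper range that those of replicate 2 lack.

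Cycling progenitors were compared with the averaged non-cycling progenitors. In them 10 of 32 members were lower and 0 higher (21.3% and 17.4% of all genes), with a median of -0.42 (all genes -0.10). DESeq2 called 8 lower and 0 higher, and 0 were higher at an unadjusted p under 0.05 by edgeR. The lower members were led by Cfap97d2 (-1.40 ± 0.17 (SE), adjusted p = 7.76e-07), with 24.0 and 16.6 CPM in cycling progenitors, Cfap54 (-1.12 ± 0.24, 38.8 and 29.8 CPM), Cfap69 (-1.08 ± 0.21, 19.0 and 19.7 CPM), Cfap44 (-1.01 ± 0.26, 39.8 and 29.6 CPM) and Cfap126 (-0.94 ± 0.32), and included Cfap46, Cfap61, Cfap74, Cfap100 and Cfap410. The averaged side holds progenitors II, where most members were higher, and the cycling cells were near progenitors I: the summed level was 1201 and 978 CPM beside 1093 and 1020.1. Without the library term 4 were lower.

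Background was measured in neuroblasts, OPCs, oligodendrocytes and microglia. The averaged progenitors were above the 4 populations averaged in 22 of 32 members and below in 0, where 37.1% of all genes were higher and 18.7% lower, and 20 of the 22 had the same direction in both libraries taken singly (Cfap99 and Cfap157 did not). DESeq2 called 26 higher. The fitted median was 2.23 (all genes 0.34, or 0.23 with plain library totals). It rests partly on empty populations: 13 members had 0 UMIs in both libraries of at least 1 of the 4 populations, 7 of them past the test, and their fitted values depend on the small count that the fit adds. With those 13 set to their lower bounds, from a floor of 3 counts over both libraries, the median was 1.35, and over the other 19 members it was 1.84. Each library alone, as log2 CPM with 2 counts added to each sum, gave 0.62 and 1.30. The added counts raise the small off-lineage sums most, so these values are not on the scale of the fitted median.

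Neuroblasts and oligodendrocytes held little of most members. The median member was at 0% and 0.632% of its MCC level in neuroblasts and 0.106% and 1.28% in oligodendrocytes. In neuroblasts 17 and 11 of the 32 tested members had 0 UMIs, where 3 counts would be 7.43 and 3.96 CPM. A few members stood higher there. Cfap97 had 34.7 and 38.3 CPM in neuroblasts and 33.0 and 49.9 in oligodendrocytes beside 46.5 and 43.0 in MCCs. Cfap36 stood at 99.1 and 119 and Cfap20 at 134 and 75.2 CPM in neuroblasts, and Cfap298 at 47.1 and 35.6. Cfap65, by contrast, had 2.48 and 0 CPM there. Relative to MCCs the 5 highest members in neuroblasts, in each library, were Cfap20, Cfap36, Cfap97, Cfap298 and Cfap410.

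Microglia and OPCs differed between the libraries. The summed member level in microglia was 1271 and 299 CPM and in OPCs 1003 and 399 CPM. In replicate 1 the median member was at 18.1% of its MCC level in microglia, with quartiles of 16.0% and 23.1%. There 0 of the 32 tested members were without a UMI. In replicate 2 the median was at 2.49%, and 9 tested members were at 0. Cfap126 had 129.8 and 21.7 CPM, Cfap44 57.8 and 8.66 and Cfap65 25.9 and 0 in microglia. All 3 were high in replicate 1 and low or at 0 in replicate 2, while Cfap97, at 24.9 and 23.1 CPM, did not show the gap. In OPCs the median member was at 9.72% and 1.55% of its MCC level.

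The member UMIs of microglia were unevenly spread over cells in both libraries. Before thinning, the tenth of microglia with the most member UMIs held 55.9% and 49.8% of them. After thinning, 28.2% and 33.3% of microglia held 0 members. At least 10 members were found in 38 of 287 thinned microglia of replicate 1 (13.2%). In replicate 2 none of 39 thinned microglia had 10 members, which allows a share of up to 7.69% by the same limit of 3 counts, and in OPCs it was 4 of 67 and 0 of 34 cells. The MCC markers moved with the members, at 428 and 79.4 CPM in microglia, as did progenitor markers at 539.8 and 41.9 CPM. The deuterosomal markers showed a smaller gap there, at 61.5 and 44.8 CPM, and the cycling markers were higher in replicate 2, at 733.9 and 1309.5 CPM. The 5 microglial markers summed to 10600.4 and 12309.9 CPM in microglia and 6.48 and 2.50 in MCCs. Whether doublets or free RNA had a part in these values was not tested. With microglia left out of the off-lineage side, an alternative added after these values were seen, 26 members were below the progenitors, and all 22 of the first count were among them.

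**Figure D5:**
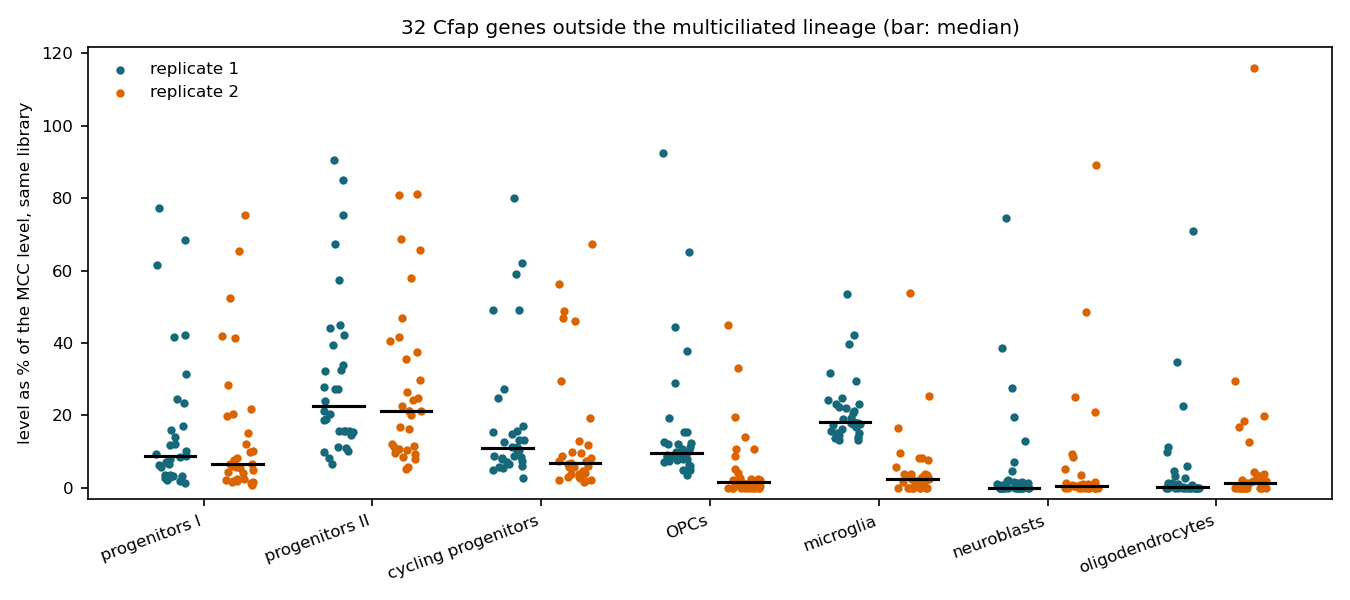
Level of each of the 32 tested Cfap genes as a percent of its level in MCCs of the same library, for progenitors and off-lineage populations, with medians as bars. In microglia the points of replicate 1 sit around a median of 18.1% and those of replicate 2 around 2.49%, and in neuroblasts and oligodendrocytes most points lie near 0.

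The other parts of the motile cilium were read from 7 lists (radial spokes, other central apparatus, nexin and dynein regulatory complex, other doublet proteins, dynein arms, other dynein assembly factors and intraflagellar transport), of which 89 genes were tested. MCCs were above the progenitors in 88 of them and below in 0, beside 28.7% and 28.0% of all genes. The median change was 2.07, beside 2.85 for the Cfap genes. Early deuterosomal cells were above progenitors in 76 and below in 0 (21.8% and 19.8% of all genes). Progenitors II were above progenitors I in 54 and below in 0 (4.44% and 2.73% of all genes). By list, the medians from progenitors to MCCs ran from 1.08 for intraflagellar transport, where 17 of 18 rose, to 3.05 for the dynein arms, where 19 of 19 rose. Dnah3 and Dnah10, inner arm heavy chains, rose by 8.12 ± 0.28 and 6.26 ± 0.34, Tekt3, a filament protein inside the doublet, by 7.18 ± 0.39, and Hydin and Spag17 of the central apparatus by 5.15 ± 0.23 and 5.36 ± 0.28. Tcte1 of the nexin and dynein regulatory complex rose by 5.43 ± 0.20, Rsph14 of the spokes by 4.21 ± 0.16, the assembly factor Dnaaf1 by 4.32 ± 0.17 and the transport protein Ift88 by 2.19 ± 0.12. Between mid and late deuterosomal cells 4 of the 89 rose and 11 fell, beside 8.61% and 13.2% of all genes. Neither count was above the share of all genes. Of the 11 that fell, 7 were from intraflagellar transport. In cycling progenitors 39 of the 89 were lower and 2 higher than in the non-cycling ones (21.3% and 17.4% of all genes).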

How the data were processed

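Single-cell expression was measured in 1 library per culture. The authors deposited raw UMI counts for each gene in each cell. The submitters' processing notes name Cell Ranger 3, Cell Ranger 5.0.1 and mm10. Which version was used for which library, how populations were named and how doublets were treated are not given in the sources used here. Gene rows were named in the order of the deposited gene table, since the count table carries no gene names. No cell was removed.

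Counts were summed per library and population (26 sums) for the 13 populations that had 20 or more cells per library, which left out fibroblasts. edgeR 4.0.16 (R 4.3.3) was fitted with TMM factors, its default low count filter (15877 genes) and robust quasi-likelihood tests with population and library as terms and 12 residual degrees of freedom. All tests are two-sided, p-values were adjusted over all genes by Benjamini-Hochberg with a threshold of 0.05, and the populations of a side were averaged equally. Standard errors were taken as the log2 fold change over the root of F. The library was a term because all populations of a library come from the same culture: over 78 pairs of populations, the deviations from the population means had a median correlation of 0.184 within libraries, the lowest being -0.00168. Limits for a count of 0 are 3 counts over the number of cells. Intervals for shares of cells are exact (Clopper-Pearson, 95%, scipy 1.17.1). They, and floors, cover counting error only.

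Alternatives were plain library totals, DESeq2 1.42.0, no low count filter, no library term, only the compared populations, no unnamed cells, thinning to 5000 UMIs, no deepest 5% of cells, single libraries (log2 CPM with 2 counts added, no test), and other onset minima. The members, role groups and lists were chosen with earlier results of these data known. Named genes were the 5 largest changes each way per comparison, the 3 members with the most UMIs per role group and members called against the majority, and up to 2 genes with the largest changes per list. Values of further members are given so that each member is accounted for. MCCs against mid deuterosomal cells was added after the levels had been seen.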

Additional observations from a re-analysis of the deposited data

Results flagged for a closer look

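Cells with no population name were on neither side of any comparison, though they entered the shared fit. Leaving them out took the calls between mid and early deuterosomal cells from 27 to 24. These unnamed cells carried a clear signal of the Cfap genes. Their summed member level was 3469 and 3512 CPM in replicates 1 and 2, above the 376.5 and 335 CPM of neuroblasts and 361 and 389.8 CPM of oligodendrocytes, and at 59.9% and 56.4% of the level in MCCs of the same library. The median member was at 53.9% and 50.4% of its MCC level. Thinned cells held a median of 11 members in both libraries, a number between those of early and mid deuterosomal cells. Their 5 deuterosomal markers were at 91.7 and 70.0 CPM, beside 759 and 896 in early deuterosomal cells and 64.2 and 74.7 in MCCs. Their 5 MCC markers were at 1098 and 979.5 CPM, beside 1072 and 1361 in early deuterosomal cells. Their 5 progenitor markers were at 2116 and 2028 CPM, beside 2300 and 2169 in progenitors II.

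Fibroblasts, left out of the tests for having 18 and 22 cells, had a summed level of 396 and 401 CPM, with exact Poisson intervals of 324 to 480.0 and 337 to 475 CPM that cover counting error only. The median member was at 0% of its MCC level in both libraries, and 20 and 17 of the 32 tested members had 0 UMIs.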

How the results depend on the processing

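The alternatives kept the members' direction in the comparisons that carry most calls, but moved the small counts and some large ones. Early deuterosomal cells against progenitors fell from 29 to 22 calls, and mid against early cells from 27 to 20, without the library term. Without the replicate block (the library term) the calls between progenitors II and I went from 26 to 10 higher, cycling progenitors from 10 to 4 lower, late against mid deuterosomal cells from 3 and 3 to 1 higher and 0 lower, early MCCs against late cells from 6 to 1 higher, MCCs against early MCCs from 1 to 0 lower, and MCCs against mid cells from 10 and 7 to 6 higher and 3 lower. No other count over all members moved by over 1.5 times without the block. By role, early deuterosomal cells against progenitors went from 7 to 4 doublet, 5 to 3 inner arm and 2 to 1 dynein assembly genes, and mid against early cells from 5 to 3 doublet and 2 to 0 dynein assembly genes. Fitting only the compared populations gave 11 higher and 9 lower (late against mid), 20 and 5 (early MCCs against late), 5 and 5 (MCCs against early MCCs), 19 higher (MCCs against mid), 1 lower (mid against early) and 2 higher (cycling). Thinning gave 7 and 6, 11 and 3, 2 higher and 18 higher in the first 4 of these. For late against mid, 1 was lower with no TMM factors, by DESeq2 and without unnamed cells, and 5 without the deepest cells, and the median of -0.04 turned to 0.042, 0.080 and 0.017 in the first 3 settings, 0.070 with thinning and 0.18 without replicate 1, and was -0.022 without replicate 2. For early MCCs against late cells, 1 was lower with no TMM factors and 2 without the deepest cells. For MCCs against early MCCs, 0 were lower by DESeq2, and the median of -0.06 turned to 0.013 with no low count filter and 0.020 without replicate 2, and was -0.045 without replicate 1. For MCCs against mid cells, 16 were higher with no TMM factors and 4 lower by DESeq2. Onset with no minimum fell in 2 mid deuterosomal, 1 early MCC, 0 MCC and 0 without onset; with a minimum of 2, 7 early, 15 mid and 2 late deuterosomal, 0 early MCC and 7 without onset. By share of cells, 1 member peaked in late deuterosomal cells. The cause was not tested, except that fits on fewer populations estimate the spread from fewer sums. With 2 libraries, leaving out either gives values with no test. Depth limits the off-lineage levels, where 3 counts are 7.43 and 3.96 CPM in neuroblasts.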

Other observations

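The deposited cell cycle classes divide early deuterosomal cells. The summed Cfap level was 3120 CPM in 482 cells classed G0, 4411 in 98 cells classed S and 4411 in 22 cells classed S/G2 of replicate 1. In replicate 2 it was 2786 CPM in 311 cells classed G0, 4460.2 in 72 cells classed S and 4465 in 38 cells classed S/G2. Replicate 1 also held 36 cells classed G1, at 3522 CPM, and 25 classed G2/M, at 4116 CPM. The G0 class was lower in both libraries, and the difference was not tested. In mid deuterosomal cells the S/G2 class held 693 and 292 cells, with 6633 and 6688 CPM, beside 5917 and 5913 CPM in 133 and 46 cells classed S. In cycling progenitors the classes with 20 or more cells lay between 1126 and 1231 CPM in replicate 1 and between 859 and 1119 CPM in replicate 2. Classes with fewer cells, G2/M of the cycling progenitors among them, were not measured.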
